A study of Oryza sativa with 12 samples.

Results

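The type-A response regulators are the short receiver-domain proteins at the end of the cytokinin signalling chain. Of this family 6 genes were examined, OsRR1, OsRR2, OsRR4, OsRR5, OsRR6 and OsRR9, each through the 1 probe set that the array annotation ties to that gene and to no other. They are 6 of 57194 tested probe sets and 6 of the 17905 genes that had a probe set of their own. Membership was set by gene name and not by any measured level, although the members were chosen with earlier results of these data known. The gene table also names OsRR7, OsRR10, OsRR11 and OsRR13, which were not analysed here.

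RNA came from flag leaves of rice plants at an age of 10 weeks, the leaf below the panicle, and was hybridised to 12 Affymetrix rice genome arrays. PSARK::IPT plants carry isopentenyltransferase, the enzyme of the first step of cytokinin synthesis, behind the promoter of a senescence-associated receptor kinase, so that the transgene depends on a promoter known for activity in maturing and stressed leaves. The plants they were set against are labelled wild type. The 4 labelled groups held 3 arrays each: PSARK::IPT plants after 3 days without water (IPT_stressed), wild type after 3 days without water (WT_stressed), PSARK::IPT plants kept watered (IPT_watered) and wild type kept watered (WT_watered). Water was withheld before anthesis in a greenhouse. The sample titles mark the transgenic plants 5T, and the labels call the arrays of a group biological replicates without saying whether leaves of several plants were pooled.

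In plants, membrane-bound histidine kinases bind cytokinin and pass a phosphate group through phosphotransfer proteins to response regulators in the nucleus. Type-B regulators are DNA-binding transcription factors that switch on cytokinin target genes, and the type-A genes are among their quickest targets. Because the chain induces them quickly, type-A transcripts are widely used as a readout of cytokinin signalling. Type-A proteins lack a DNA-binding domain and dampen the chain that induced them.

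Values are log2 values made with RMA, so a difference of 1 is a 2-fold difference in signal. A value can be compared between arrays within 1 probe set, but not between probe sets. In bulk leaf RNA fewer cells of a type and less RNA per cell cannot be told apart. The level below which a probe set could not be told from foreign sequence was taken, per group, as the 95th percentile of 106 probe sets for sequences foreign to rice, and lay at 3.34 in IPT_stressed, 4.10 in WT_stressed, 3.15 in IPT_watered and 3.62 in WT_watered.

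The arrays themselves raised a doubt about the labels. A first reporter probe set for a foreign sequence averaged 10.16 ± 0.27 on IPT_stressed and 8.98 ± 0.25 on WT_stressed arrays, against 2.08 ± 0.08 on IPT_watered and 3.48 ± 2.21 on WT_watered arrays (SD, n = 3 each), where replicate 3 read 6.03. It followed the water label and not the genotype label, as did a second reporter, so the group labels have no check here and every direction below, between water conditions as between genotypes, is that of the labels. The 3′ minus 5′ signal of a GAPDH control, a sign of RNA or labelling quality, ran from 3.34 to 4.29 on the 6 arrays labelled IPT and from 4.86 to 7.30 on the 6 labelled WT, while a second GAPDH pair lay between 0.275 and 1.138 on all arrays. The bacterial Bio spike-in controls of the hybridisation averaged 7.77 to 8.35 on the arrays labelled IPT and 10.36 to 11.74 on those labelled WT. The SD over all tested probe sets of an array was 2.174 to 2.222 on arrays labelled IPT and 1.915 to 2.091 on those labelled WT. Of the green leaf markers, 3 of the 4 that had a probe set lay above background in every group. Of 10 panicle and floral genes, 4 lay above it in both IPT groups and 3 in both WT groups, and their summed level was 32.5 to 33.8 on IPT and 30.0 to 32.2 on WT arrays. The part of these differences in the results was not tested.

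OsRR9, whose loss together with that of OsRR10 is known to make rice more salt tolerant, varied most. Its log2 values were 8.01, 7.55 and 8.36 on IPT_stressed arrays and 8.43, 8.04 and 9.75 on WT_stressed arrays. On watered leaves it read 5.31, 6.44 and 8.29 on IPT_watered arrays and 8.37, 6.26 and 9.07 on WT_watered arrays. The stressed arrays all lay between 7.55 and 9.75. Of the 6 watered arrays 3 lay more than 1 unit below every stressed array and the other 3 within the stressed range, so that every pair of groups overlapped. OsRR9 and OsRR10 are close copies, and whether this probe set separates them was not examined.

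OsRR6, which lowers the sensitivity of rice to cytokinin when overexpressed, had a similar layout. It read 7.78, 6.80 and 7.78 on IPT_stressed and 7.58, 7.37 and 7.96 on WT_stressed arrays. The watered arrays gave 5.73, 5.73 and 7.29 for IPT_watered and 6.99, 5.65 and 7.68 for WT_watered. Here 2 of the 3 IPT_watered arrays and 1 WT_watered array lay more than 1 unit below every stressed array, and the other 3 watered arrays lay within the stressed range.

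OsRR4 read 7.43, 7.57 and 7.20 on IPT_stressed arrays and 7.91, 6.93 and 8.67 on WT_stressed arrays. It read 5.46, 6.96 and 7.92 on IPT_watered arrays and 7.89, 6.55 and 7.82 on WT_watered arrays. The IPT_stressed arrays lay close together and the other groups spread widely around them, with the lowest value on IPT_watered replicate 1 and the highest on WT_stressed replicate 3.

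OsRR2 is a gene that the homeobox factor WOX11 represses in rice crown roots. It read 7.42, 7.60 and 7.25 on IPT_stressed and 7.53, 7.12 and 7.91 on WT_stressed arrays. It read 5.91, 6.27 and 7.66 on IPT_watered and 7.28, 6.78 and 7.43 on WT_watered arrays. Its 2 lowest values were those of IPT_watered replicates 1 and 2, and the remaining 10 arrays lay between 6.78 and 7.91.

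OsRR1 is induced by the AP2 factor CRL5 during crown root initiation, and its protein binds the flowering regulator Ehd1 and reduces Ehd1 activity. It was near background in these leaves. It read 4.12, 4.55 and 3.68 on IPT_stressed and 4.47, 4.06 and 6.72 on WT_stressed arrays. It read 4.15, 4.18 and 4.95 on IPT_watered and 4.59, 4.54 and 5.14 on WT_watered arrays. WT_stressed replicate 3 stood alone at 6.72, more than 1 unit above any other array, and WT_stressed replicate 2 lay under the background level of its group.

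OsRR5 lay under the background level on all 12 arrays. It read 2.45, 2.75 and 2.61 on IPT_stressed and 3.16, 3.52 and 3.34 on WT_stressed arrays. It read 2.71, 2.68 and 2.78 on IPT_watered and 3.18, 3.24 and 3.46 on WT_watered arrays. All 6 arrays labelled IPT lay below all 6 labelled WT, and the median of the 106 foreign-sequence probe sets lay the same way round, at 2.14 in IPT_stressed against 2.43 in WT_stressed and at 2.16 in IPT_watered against 2.26 in WT_watered. No fold is given for OsRR5.

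**Figure D1:**
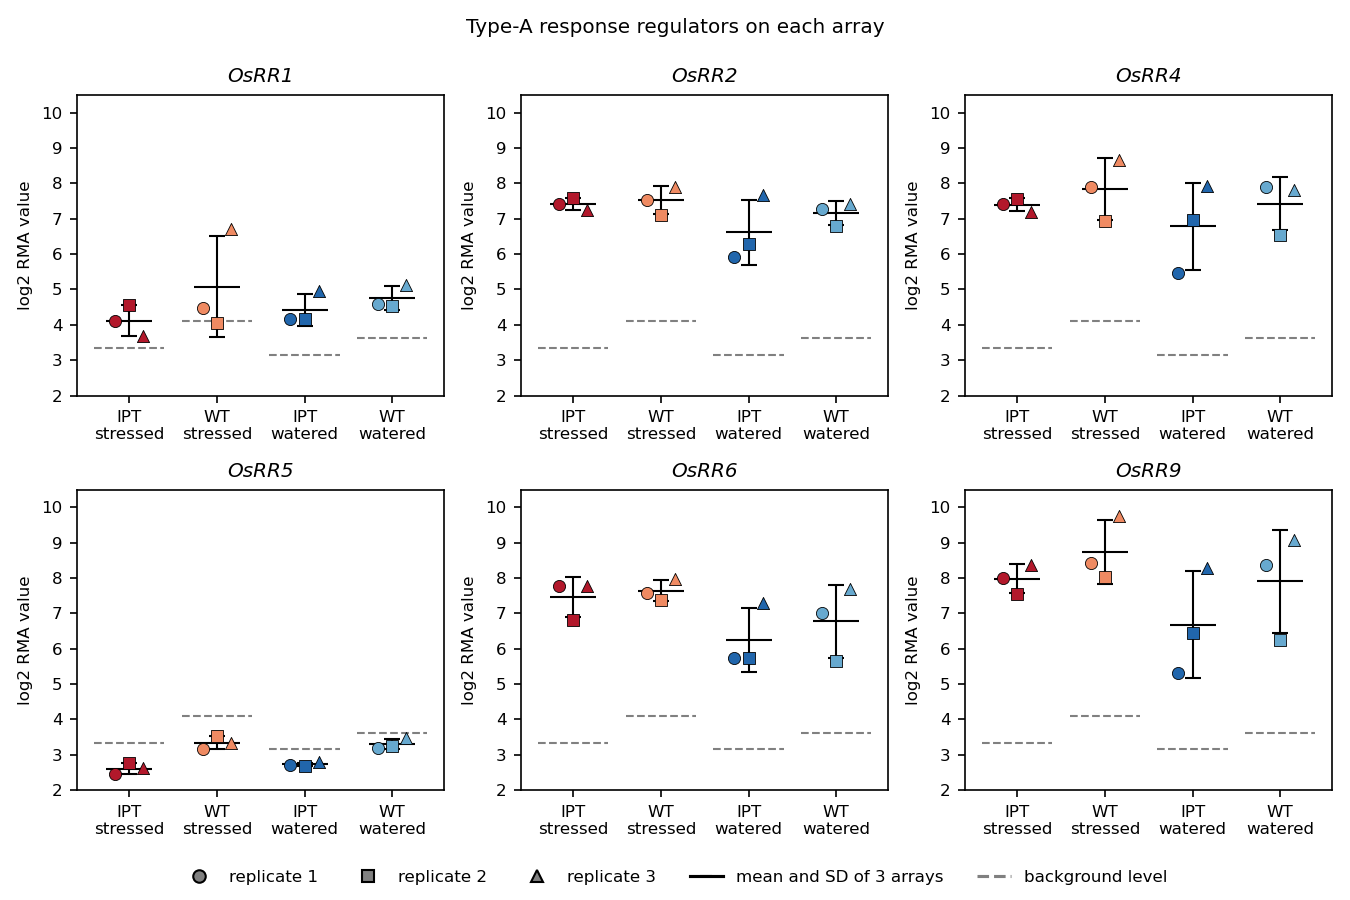
Log2 RMA value of each type-A gene (vertical axis) on each array of the 4 labelled groups (horizontal axis). Symbols give the replicate number, black lines the mean and SD of 3 arrays, and dashed lines the background level of the group. OsRR5 lies under the dashed line in every group, and OsRR9 spans 5.31 to 9.75.

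By group mean, all 6 genes were highest in WT_stressed. For OsRR2, OsRR6 and OsRR9 the order went on with IPT_stressed, WT_watered and IPT_watered, and for OsRR4 with WT_watered, IPT_stressed and IPT_watered. OsRR1 and OsRR5 were followed by WT_watered, IPT_watered and IPT_stressed. The arrays of neighbours in these orders overlapped in every case except OsRR5 between IPT_watered and WT_watered.

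The question of the first comparison is whether leaves with the cytokinin synthesis gene carried more type-A transcript than wild type under the same water supply. None of the 6 genes was higher on arrays labelled IPT, with or without water. After 3 days without water all 6 group means were lower in IPT_stressed than in WT_stressed, with a median change of -0.59, when the median over all tested probe sets was -0.16 and 39.2% of them were above 0. OsRR1 changed by -0.97 ± 0.54 (SE; limma adjusted p = 0.159) and OsRR9 by -0.77 ± 0.78 (limma adjusted p = 0.434), with 95% intervals of -2.16 to 0.22 and -2.48 to 0.95. OsRR4 changed by -0.44 (interval -1.70 to 0.83), OsRR6 by -0.18 (interval -1.31 to 0.94) and OsRR2 by -0.10 (interval -0.92 to 0.72), and none of these 5 passed the test. In the values as deposited the upper ends of all 5 intervals lay under 1 unit, a 2-fold rise, and the lower ends reached -2.48. The upper bound depends on the scaling, since centring each array on its own median moved the changes of this comparison up by 0.23. Much of these differences rested on WT_stressed replicate 3, without which OsRR1 changed by -0.15, OsRR9 by -0.26 and OsRR4 by -0.02, while without WT_stressed replicate 2 OsRR1 changed by -1.48 (adjusted p = 0.049, range over all settings 0.049 to 0.696).

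Of the 6 genes 1, OsRR5, passed an adjusted p of 0.05 in that comparison, and its 3 arrays did not overlap the other 3. Of all probe sets 46.1% passed, 26.7% passed in the lower direction, and 55.4% had arrays that did not overlap, so 1 call in 6 genes is no more than the background. OsRR5 differed by -0.73 ± 0.14 (SE, limma adjusted p = 0.0014) between levels that both lay at background, so this is a difference of signal with no fold. It did not pass once the GAPDH 3′ minus 5′ signal was added as a covariate in limma (-0.99, adjusted p = 0.14). The same held for OsRR5 in watered leaves and in both waters together. That signal parted the arrays labelled IPT (3.34 to 4.29) from those labelled WT (4.86 to 7.30), so the fit cannot separate it from the genotype label. With it 0.226% of all probe sets passed in this comparison, and no conclusion is drawn from the lost call. With each array centred on its own median, OsRR2 and OsRR6 turned to 0.13 and 0.046, and the median of all probe sets moved up by 0.23.

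Among watered leaves the 6 means were again all lower in IPT_watered than in WT_watered. The median change was -0.56 against -0.08 over all tested probe sets, of which 41.9% were above 0. The widest difference was that of OsRR9, at -1.22 ± 0.78 (SE; limma adjusted p = 0.297, interval -2.93 to 0.49). OsRR4 changed by -0.64 ± 0.58, OsRR2 by -0.55 ± 0.37, OsRR6 by -0.52 ± 0.52 and OsRR1 by -0.33 ± 0.54 (SE), and none passed the test. OsRR5, at background, again passed at -0.57 ± 0.14 (SE, limma adjusted p = 0.0129) with arrays that did not overlap, where 19.2% of all probe sets passed and 42.4% had arrays that did not overlap. These watered values lean on single arrays. Leaving out 1 array moved OsRR9 between -2.04, without WT_watered replicate 2, and -0.54, without IPT_watered replicate 1. Without IPT_watered replicate 3, which held the highest value of its group for all 6 genes, OsRR2 changed by -1.07 and passed (adjusted p = 0.0186; range over all settings 0.0186 to 0.773). Without IPT_watered replicate 2 OsRR5 did not pass (adjusted p = 0.0531; range 0.00544 to 0.216).

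Averaged over both water conditions the genotype difference was -0.99 ± 0.55 for OsRR9, -0.65 ± 0.39 for OsRR1, -0.54 ± 0.41 for OsRR4, -0.35 ± 0.37 for OsRR6 and -0.32 ± 0.26 for OsRR2 (SE). The limma adjusted p of these 5 genes ran from 0.151 for OsRR9 to 0.432 for OsRR6. OsRR5 passed at -0.65 ± 0.10 (SE, limma adjusted p = 0.000215), in a comparison in which 51.2% of all probe sets passed. Without IPT_watered replicate 3 both OsRR2 (-0.59, adjusted p = 0.0168; range over all settings 0.0168 to 0.655) and OsRR9 (-1.39, adjusted p = 0.0375; range 0.0375 to 0.332) passed as well. OsRR9 also passed without WT_watered replicate 2 (-1.40, adjusted p = 0.0375) and with the replicate number fitted as a block.

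The next comparison asks what withholding water did within each labelled genotype. No type-A gene passed the test in either. In PSARK::IPT leaves OsRR9, OsRR6, OsRR2 and OsRR4 had higher means without water and OsRR1 and OsRR5 lower ones. OsRR6 averaged 7.45 ± 0.57 in IPT_stressed and 6.25 ± 0.90 in IPT_watered leaves (SD, n = 3 each), a change of 1.20 ± 0.52 (SE; interval 0.07 to 2.33) with a limma unadjusted p of 0.0386 and an adjusted p of 0.574. OsRR9 changed by 1.29 ± 0.78 (interval -0.42 to 3.00), OsRR2 by 0.80 ± 0.37 (interval -0.01 to 1.62) and OsRR4 by 0.62 ± 0.58 (interval -0.64 to 1.88). Without IPT_watered replicate 1 OsRR9 changed by 0.61, OsRR2 by 0.45 and OsRR4 by -0.04, and without IPT_watered replicate 3 by 2.10, 1.33 and 1.19. Of all probe sets 0.177% passed here, and the median change of the 6 genes was 0.71 against -0.03 over all probe sets. With arrays weighted by their own scatter, OsRR6 passed at 1.57 (adjusted p = 0.0213; range over all settings 0.0213 to 1), where 8.69% of all probe sets passed.

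In wild-type leaves all 6 means were higher without water, and none passed. OsRR6 averaged 7.64 ± 0.30 in WT_stressed and 6.78 ± 1.03 in WT_watered leaves, a change of 0.86 ± 0.52 (SE; limma adjusted p = 0.368, interval -0.27 to 1.99). OsRR9 averaged 8.74 ± 0.90 in WT_stressed and 7.90 ± 1.47 in WT_watered leaves, a change of 0.84 ± 0.78 (SE; interval -0.87 to 2.55). OsRR4 (0.42), OsRR2 (0.36), OsRR1 (0.33) and OsRR5 (0.05, turning to -0.06 under either other scaling) differed less. In this comparison 0.42% of all probe sets passed and 55.2% were above 0, and none of the 6 genes had an unadjusted p under 0.05. Single arrays carried these differences. Without WT_watered replicate 2 OsRR9 changed by 0.02, OsRR6 by 0.30, OsRR2 by 0.16 and OsRR4 by -0.02, and without WT_stressed replicate 3 OsRR1 changed by -0.49 and OsRR9 by 0.33.

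Taken over both genotypes, the change without water was 1.07 ± 0.55 for OsRR9, 1.03 ± 0.37 for OsRR6, 0.58 ± 0.26 for OsRR2 and 0.52 ± 0.41 for OsRR4 (SE). The limma adjusted p was 0.238 for OsRR6 (unadjusted 0.0156) and 0.358 for OsRR2 (unadjusted 0.0489), in a comparison in which 0.409% of all probe sets passed. The means of OsRR1 and OsRR5 differed by 0.01 and -0.04.

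**Figure D2:**
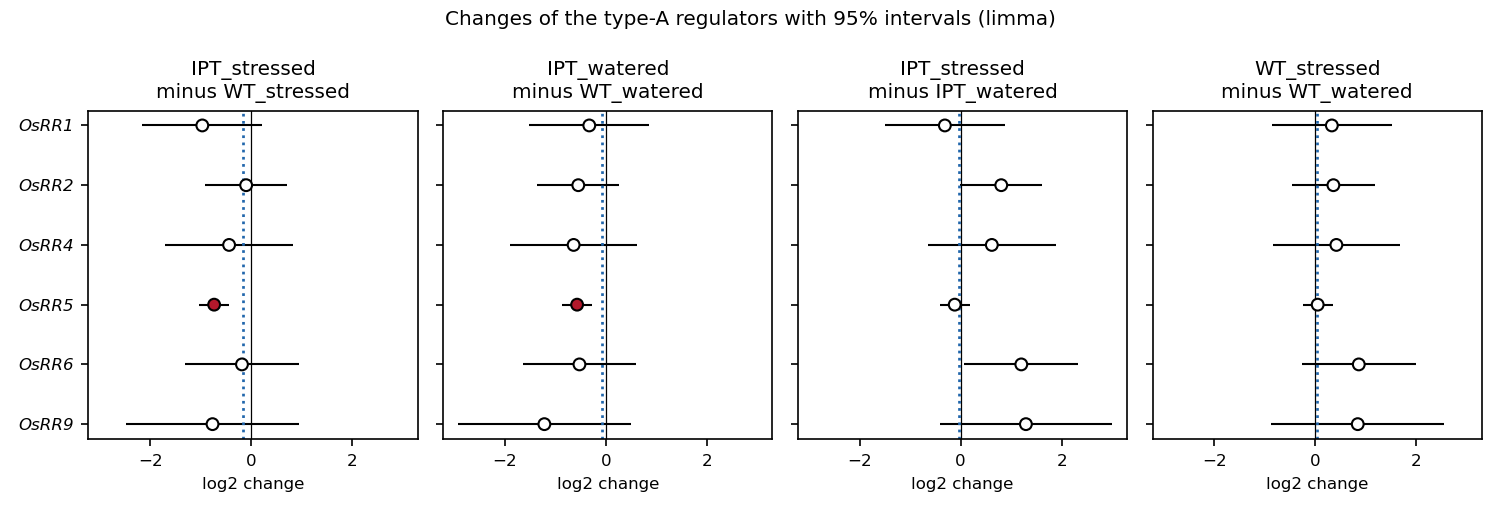
Log2 change of each type-A gene (points) with its 95% interval from limma (bars) in the 4 comparisons between labelled groups, with filled points for an adjusted p under 0.05 and a dotted line at the median of all tested probe sets. OsRR5, whose values lie at background, is the 1 filled point in each genotype comparison, and the intervals of OsRR9 are the widest of the 6.

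Whether the response to withheld water differed between the labelled genotypes was tested as the difference of both stress effects. For OsRR9 it was 0.45 ± 1.11, for OsRR2 0.45 ± 0.53, for OsRR6 0.34 ± 0.73, for OsRR4 0.20 ± 0.82, for OsRR5 -0.16 ± 0.19 and for OsRR1 -0.64 ± 0.77 (SE). Their limma adjusted p-values ran from 0.713 to 0.926. No probe set of the series passed (0%) and 8178 had a limma unadjusted p under 0.05, none of them a type-A gene. The interval for OsRR9 ran from -1.97 to 2.87.

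What stood out in the type-A genes was the spread between arrays of 1 group. The pooled SD within groups was 1.16 for OsRR9, 0.85 for OsRR4, 0.80 for OsRR1, 0.76 for OsRR6 and 0.54 for OsRR2, against a median of 0.213 over all tested probe sets. Of all probe sets 99.6% had a smaller SD than OsRR9, 98.7% than OsRR4, 98.4% than OsRR1, 98.1% than OsRR6 and 94.5% than OsRR2. Among the 15303 probe sets with a mean of at least 5, a set chosen after the values were seen, 99.1% had a smaller SD than OsRR9 and 87.3% a smaller one than OsRR2. OsRR5, at background, had an SD of 0.14.

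The spread was partly shared. On IPT_watered replicate 3 all 6 genes had their highest value of the group, on WT_stressed replicate 3 and on WT_watered replicate 3 5 of the 6 did, and on IPT_stressed replicate 3 1 did. Without OsRR5, at background, these counts were 5, 5, 4 and 1. How many of all probe sets were highest on the same arrays was not counted. On WT_stressed replicate 2 and WT_watered replicate 2, 5 of the 6 genes had their lowest value of the group. On IPT_stressed arrays the genes went apart, since replicate 2 held the highest value of OsRR1, OsRR2, OsRR4 and OsRR5 and the lowest of OsRR6 and OsRR9. OsRR6 and OsRR9 deviated from their group means in the same direction on 12 of 12 arrays, OsRR2 and OsRR4 on 10 of 12 and OsRR4 and OsRR5 on 5 of 12. The other pairs among OsRR2, OsRR4, OsRR6 and OsRR9 did so on 8 of 12. OsRR1 did so on 9 of 12 with each of those genes and on 8 of 12 with OsRR5.

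**Figure D3:**
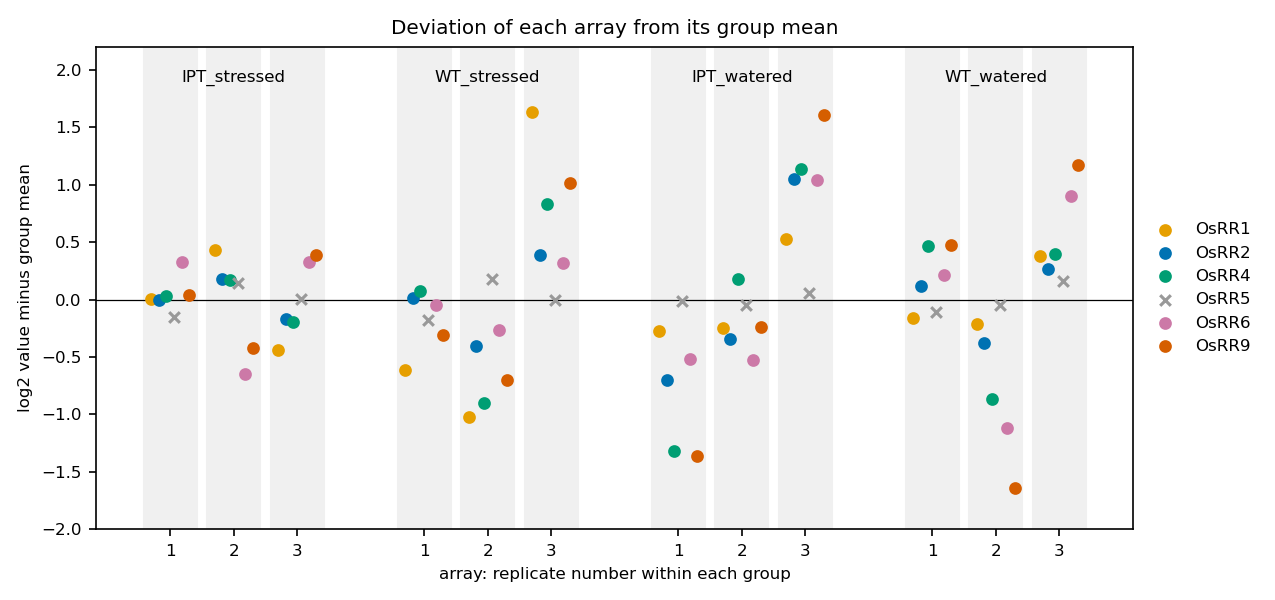
Log2 value of each type-A gene minus the mean of its group (vertical axis) on each of the 12 arrays, by replicate number within the labelled group (horizontal axis). OsRR2, OsRR4, OsRR6 and OsRR9 lie on the same side of 0 on most watered arrays, with OsRR9 farthest out, and OsRR5 (crosses) stays near 0.

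Across the 12 arrays the 6 pairs that OsRR2, OsRR4, OsRR6 and OsRR9 form had Pearson's r of 0.736 to 0.917 and Spearman's rho of 0.545 to 0.909. Permutation p-values, adjusted over all 15 pairs of the 6 genes, were 0.0006 to 0.011 for r and 0.0012 to 0.132 for rho. For each pair, leaving out the 2 arrays farthest from the median of the lower-numbered gene left r at 0.597 to 0.908. The outlying values of OsRR9 thus never set which arrays were left out. The relation was there within the 6 arrays labelled IPT (r of 0.671 to 0.924) and within the 6 labelled WT (0.787 to 0.961). With each value taken as its deviation from its group mean, r was 0.691 to 0.921, with exact within-group permutation p-values, adjusted over the 15 pairs, of 0.0231 to 0.102. The closest pairs by that measure were OsRR6 with OsRR9 (0.921), OsRR2 with OsRR4 (0.904) and OsRR4 with OsRR9 (0.889). All values of a pair come from the same arrays, so anything that differs between arrays is common to both genes.

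OsRR1 went along less closely, with r of 0.313 to 0.643 to those 4 genes, rho of 0.049 to 0.692, and permutation p-values of 0.0878 to 0.425 for r and of 0.0487 to 0.903 for rho after adjustment. Leaving out the 2 arrays farthest from the median of OsRR1 gave r of 0.303 to 0.575. Within the 6 IPT arrays r was -0.082 to 0.423 and within the 6 WT arrays 0.461 to 0.759. As deviations from the group means r was 0.368 to 0.659, with adjusted exact permutation p-values of 0.0116 to 0.118, the smallest of all 15 pairs being that with OsRR2 (r of 0.635, adjusted exact p = 0.0116). OsRR5 falls into separate clusters by labelled genotype, so it has no pooled value. Within the 6 IPT arrays its r to the other genes ran from -0.468 to 0.622 and within the 6 WT arrays from -0.171 to 0.321.

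The named genes whose levels tracked each type-A gene best over the 12 arrays are given as a description, picked from all named genes on the array by Pearson's r. OsRR6 was nearest to CM-LOX1 (0.921), a lipoxygenase, and to OsJAZ11 (0.888), a repressor of jasmonate signalling. CM-LOX1 averaged 7.89 ± 1.61 in IPT_stressed, 7.45 ± 0.90 in WT_stressed, 4.19 ± 1.56 in IPT_watered and 5.05 ± 1.64 in WT_watered leaves (SD, n = 3 each), so it too was higher in both stressed groups and spread widely. OsMYBS1, a MYB factor of sugar-regulated amylase genes, was nearest to OsRR2 (0.873) and OsRR4 (0.807) and the second nearest to OsRR9 (0.815), after RNC1 (0.836), named for a maize factor of chloroplast intron splicing. OsRR1 was nearest to OsXRT5 (0.954), of the xyloglucan wall enzymes, and to OsVTE2-2 (0.924). The closest to OsRR5 were CSTLP4 (0.949) and IAA20 (0.941), which also parted by labelled genotype.

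The type-A values were set beside the other cytokinin genes of the array, 24 genes in 5 roles. Where more than 1 probe set read a gene, the brightest over the 12 arrays was used. Below, rose and fell mean called higher or lower on arrays labelled IPT than on arrays labelled WT under the same water supply. They do not mean a response to withheld water. Without water 12 of the 24 rose and 5 fell, where 19.3% of all probe sets rose and 26.7% fell. In watered leaves 7 rose and 3 fell, where 10.3% of all probe sets rose and 8.9% fell. With equal array medians 14 rose and none fell without water, where 36.5% of all probe sets passed, and 9 rose and 2 fell in watered leaves, where 17.9% did. After quantile normalization 10 rose and 2 fell without water, where 26.9% of all probe sets passed, and 4 rose and 3 fell in watered leaves, where 14.4% did. Without WT_watered replicate 3 the counts were 12 and 3 without water and 5 and 1 in watered leaves, where 46.7% and 17.9% of all probe sets passed. With the GAPDH 3′ minus 5′ signal as a covariate in limma none of the 24 passed (10 and 6 had an unadjusted p under 0.05), and 129 and 39 probe sets passed in all. Because that signal parted the labelled genotypes without overlap, this setting cannot separate it from the genotype label. The list was chosen with earlier results of these data known.

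All 3 receptors were higher on IPT arrays in both water conditions. HK5 averaged 8.99 ± 0.32 in IPT_stressed and 7.43 ± 0.30 in WT_stressed leaves, a change of 1.55 ± 0.27 (SE, limma adjusted p = 0.000931), and 9.52 ± 0.43 in IPT_watered and 8.19 ± 0.42 in WT_watered leaves, a change of 1.33 ± 0.27 (limma adjusted p = 0.0055). Its second probe set gave 2.64 and 2.19. HK4 changed by 1.25 and 1.01 and HK3 by 0.64 and 0.52, all with non-overlapping arrays. Of all probe sets 55.4% without water and 42.4% in watered leaves had such arrays. The receptors kept their sign under quantile normalization and with equal array medians, but HK3 no longer passed after quantile normalization (0.19 and 0.37), nor in watered leaves without WT_watered replicate 3 (0.54).

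The phosphotransfer protein genes AHP1 and AHP2 were higher on arrays labelled IPT too. AHP1 was higher by 1.96 ± 0.21 in IPT_stressed than in WT_stressed leaves (SE, limma adjusted p = 5.92e-05). It was higher by 0.94 ± 0.21 in IPT_watered than in WT_watered leaves (limma adjusted p = 0.0101). The second probe set of AHP1 gave 0.63 and 0.15. AHP2 changed by 0.68 and 0.47, and PHP5, grouped with them by its name, by 0.27 and 0.63 without passing. After quantile normalization neither AHP1 nor AHP2 passed in watered leaves, and without WT_watered replicate 3 AHP2 did not.

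There were 5 genes counted by name as type-B, the class of transcription factors upstream of the type-A genes. Of these, 3 were called higher in IPT_stressed than in WT_stressed leaves: RR23 by 1.51, RR21 by 1.25 and RR24 by 0.93. RR21 averaged 8.05 ± 0.06 in IPT_stressed and 6.80 ± 0.30 in WT_stressed leaves, and was the 1 type-B gene that rose in watered leaves too (1.05 ± 0.17, SE, limma adjusted p = 0.0015). RR33 fell by 0.39 between levels at background, a call lost under either other scaling, and RR22 changed by 0.45 and -0.14 without passing. RR33 is also listed under the name OsRRA19, and its type was not checked. By sign alone, 3 of 3 receptors, 3 of 3 phosphotransfer genes and 4 of 5 type-B genes were higher in IPT_stressed than in WT_stressed. In watered leaves the counts were 3, 3 and 3. Of all tested probe sets 39.2% without water and 41.9% in watered leaves were higher on arrays labelled IPT. Without water they were 3, 2 and 3 after quantile normalization and 3, 3 and 4 with equal array medians. No type-A gene had a higher mean on arrays labelled IPT in the values as deposited. With equal array medians 2 of 6 did so without water. With the GAPDH covariate no gene of these 4 kinds passed between genotypes, in a setting that cannot separate the GAPDH signal from the genotype label.

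The genes for hormone turnover went both ways. LOG and its relatives release active cytokinin from its nucleotide. Of 8 such genes, LOGL7 (2.03), LOGL9 (2.03) and LOGL5 (0.66) were higher in IPT_stressed than in WT_stressed leaves, and LOGL10 (-0.89) and LOGL6 (-1.05) were lower. Neither LOGL10 nor LOGL6 passed there with equal array medians, and LOGL5 did not after quantile normalization. In watered leaves LOGL7 rose by 1.95, and LOGL6 (-1.33) and LOGL10 fell, the second of these to 5.92 ± 0.55 in IPT_watered, against 6.92 ± 0.47 in WT_watered leaves, neither of them without WT_watered replicate 3. Cytokinin oxidases degrade the hormone. CKX11 was higher by 2.69 ± 0.69 in IPT_stressed than in WT_stressed leaves (SE, limma adjusted p = 0.0088), where its second probe set, near background, gave 0.11. CKX5 was lower by 0.72 in IPT_watered than in WT_watered leaves. Without water CKX5 passed too, but WT_stressed lay at background and IPT_stressed just above it, so no size is given. CKX1 was lower by 0.39 in IPT_stressed than in WT_stressed leaves, between levels at background. Neither CKX1 nor CKX5 passed without water under either other scaling. CKX4 passed over both water conditions together, at 1.20 ± 0.32 (SE, limma adjusted p = 0.00903). Between stressed and watered leaves limma called none of the 24 genes in either labelled genotype in the values as deposited. An unadjusted limma p under 0.05 was found for 4 of the 24 in PSARK::IPT and 11 of the 24 in wild type. These are larger shares than the 8.02% and 20.1% of all probe sets. After quantile normalization the counts of the 24 were 4 and 2. With equal array medians AHP1 was lower in WT_stressed than in WT_watered leaves (limma adjusted p = 0.0346).

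**Figure D4:**
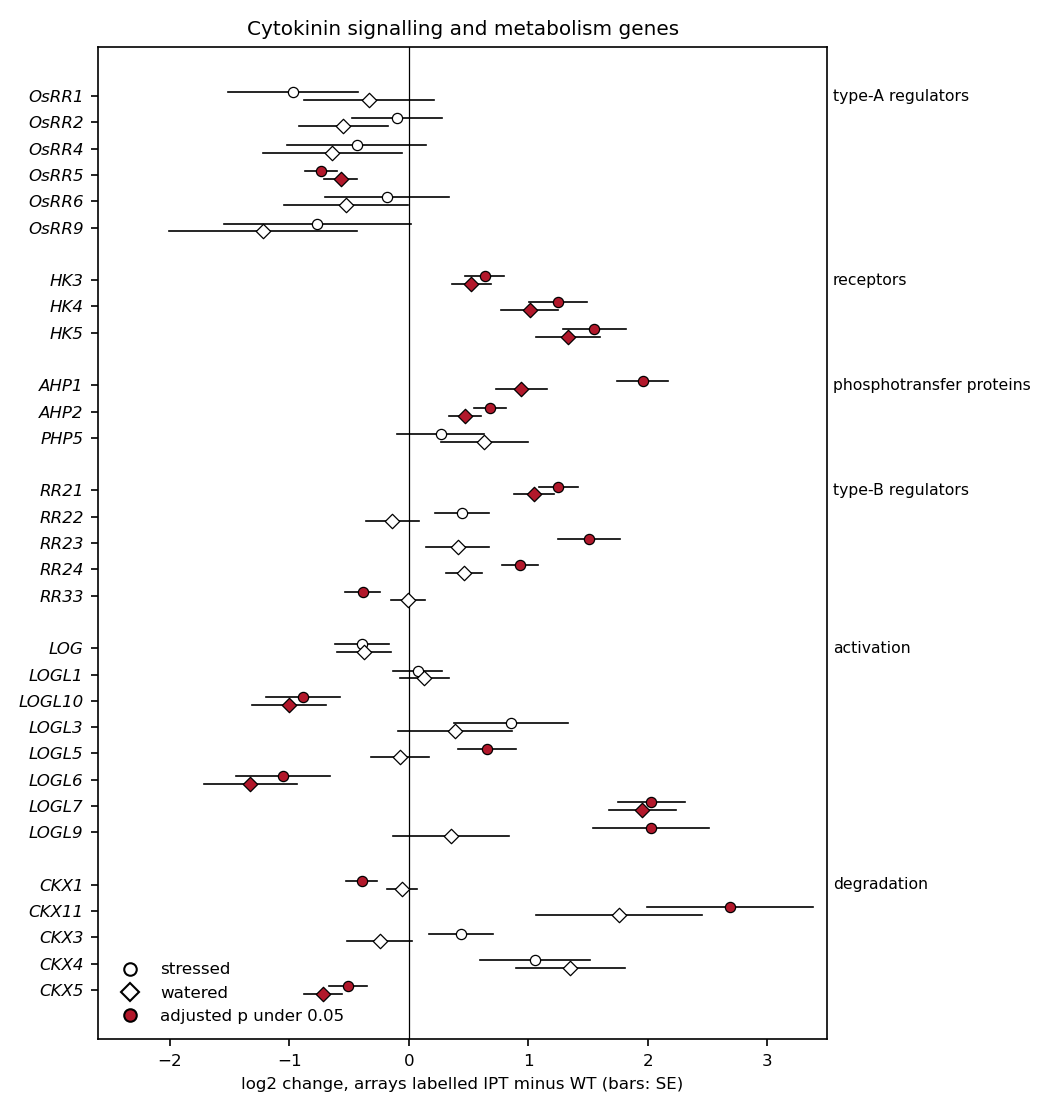
Log2 change between arrays labelled IPT and WT (horizontal axis, bars are SE) for the 6 type-A genes and 24 other cytokinin genes, grouped by role, in stressed (circles) and watered (diamonds) leaves, filled where the limma adjusted p is under 0.05. The type-A points lie left of 0 and the receptor points right of 0, from 0.52 to 1.55.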

How the data were processed

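The authors deposited 1 table of log2 values from RMA (the submitters' processing notes), a method that subtracts background, quantile-normalizes and combines the probes of each set. Its software is not given in the sources used here, and neither is its version. The deposited log2 values were used as deposited, although their spread was not equal between arrays (SD over tested probe sets 1.915 to 2.222). Of 57381 probe sets, 123 controls and 64 reporters served as checks and the remaining 57194 were tested. Genes came from the platform annotation and RefSeq's gene table of rice, assembly ASM3414082v1, used for names only; 22436 tested probe sets had 1 gene, and 95 had several.

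limma 3.58.1 in R 4.3.3 (lmFit, eBayes) fitted 1 mean per group over all 12 arrays, and 7 contrasts were adjusted over all tested probe sets (Benjamini-Hochberg, called under 0.05). The fit was tested on simulated data. Errors are limma's standard errors or SDs over 3 arrays. Since an exact two-sided test of 3 arrays against 3 cannot go below 0.1, the number of arrays limits the precision; p-values measure the spread between arrays, and nothing but the word biological in the labels says how separate their plants were. No 2 arrays were alike (r of 0.908 to 0.994). Correlations used 100000 permutations, or all 1296 orders within groups (smallest p 0.000772).

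Named genes were the 6 members, the other cytokinin genes called in any contrast or among the 2 brightest of their role, and the 2 best correlated named genes per member. The members, gene lists and tests were chosen with earlier results of these data known. Alternatives were 2 other scalings, a minimum mean of 5, trend and robust options, array weights, only the arrays compared, a replicate block, a GAPDH covariate and leaving out each array. Replicate numbers were not taken as pairs: of 18 same-number pairs, 9 had deviations correlated above 0.1 (-0.102 to 0.191). On the other side, 11 of the 12 arrays correlated best with an array of their own number. The labels do not say what the numbers mark.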

Additional observations from a re-analysis of the deposited data

Results flagged for a closer look

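Both probe sets named here lie outside the tested table: they are array reporters for sequences foreign to rice. The first averaged 10.16 on IPT_stressed and 8.98 on WT_stressed arrays, against 2.08 on IPT_watered and 3.48 on WT_watered arrays. The second averaged 7.97 on IPT_stressed and 7.68 on WT_stressed arrays, against 2.12 on IPT_watered and 2.61 on WT_watered arrays. They were noted because foreign sequence read far above the watered controls on arrays labelled wild type as well as on arrays labelled PSARK::IPT. What gave this signal was not tested, and the type-A values are given under the labels as they stand. No group here had enough arrays for a test of single outlying arrays.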

How the results depend on the processing

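Of 808 changes of single type-A genes recomputed under the alternatives, 759 kept their direction and their side of the threshold, 7 passed where they had not, 5 no longer passed and 37 turned direction, none of them a change that had passed. The number of type-A genes called, 1 in each genotype comparison, was 0 in all of them (stressed, watered and both waters) with a minimum mean of 5, which removes OsRR1 and OsRR5, and with the GAPDH covariate. It was 0 in watered leaves after quantile normalization, where OsRR5 changed by -0.45 (adjusted p = 0.0532). For IPT_stressed minus IPT_watered it was 1 with array weights, against 0. With the replicate block it was 2 for both waters together, where OsRR9 joined at -0.99 (adjusted p = 0.0413), and the block changed no other count of type-A calls; 11 of 12 arrays correlated best with an array of their own number. Leaving out 1 array gave 1 to 2 calls in stressed leaves (2 without WT_stressed replicate 2, where OsRR1 was -1.48, adjusted p = 0.049, range over all settings 0.049 to 0.696), 0 to 2 in watered leaves and 1 to 3 for both waters.

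With equal array medians OsRR2 and OsRR6 turned to 0.13 and 0.046 in IPT_stressed minus WT_stressed, OsRR5 to -0.060 in WT_stressed minus WT_watered and OsRR1 to -0.032 in the mean water effect. With array weights OsRR6 was 0.026 in IPT_stressed minus WT_stressed and OsRR1 -0.15 in the mean water effect. After quantile normalization OsRR5 was -0.061 in WT_stressed minus WT_watered and OsRR4 -0.049 in the difference of the stress effects. With the GAPDH covariate OsRR5 was 0.012 in the mean water effect, and the difference of the stress effects was -0.11 for OsRR4, -0.029 for OsRR6 and -0.088 for OsRR9. The median genotype change of the 6 genes went from -0.586 to -1.515 without water and from -0.559 to -1.487 in watered leaves. None of them passed there. The GAPDH signal parted the labelled genotypes without overlap, so these sizes cannot be separated from it. Leaving out 1 array, IPT_stressed minus WT_stressed ran from -0.30 to 0.095 for OsRR2 and from -0.35 to 0.14 for OsRR6, IPT_watered minus WT_watered from -1.21 to 0.019 for OsRR4, and IPT_stressed minus IPT_watered from -0.041 to 1.19 for OsRR4. WT_stressed minus WT_watered ran from -0.49 to 0.84 for OsRR1, -0.019 to 0.87 for OsRR4 and -0.046 to 0.13 for OsRR5, and the mean water effect from -0.40 to 0.26 for OsRR1 and -0.082 to 0.0081 for OsRR5. The difference of the stress effects ran from -1.15 to 0.18 for OsRR1, -0.46 to 0.77 for OsRR4, -0.11 to 0.90 for OsRR6 and -0.23 to 1.28 for OsRR9. The causes were not tested.

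Signal over background limits OsRR5, which no array showed above the background level, and OsRR1, which lay near it. The spread within groups limits the other 4 genes at 3 arrays a group, and the unchecked group labels limit every direction, between water conditions as between genotypes.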
